A study of Mus musculus with 18 samples.

Results

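The colony-stimulating factors and their receptors comprise 9 mouse genes, *Csf1*, *Il34*, *Csf1r*, *Csf2*, *Csf2ra*, *Csf2rb*, *Csf2rb2*, *Csf3* and *Csf3r*. They were looked up by symbol in the count table, and 9 of its 55573 genes carried these names. The family was chosen by the male-female difference of *Csf1r*, *Csf2rb* and *Csf2rb2* in these same samples, which was already known. For this reason the values of males and females are given as a description. Members called between the sexes are counted beside the share of all genes, and nothing is read from those counts. Tests of members are read only for comparisons that the choice did not use.

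RNA-Seq was performed on the spinal dorsal horn (DHSC), the part of the cord that receives sensory fibers, taken from adult C57BL/6J mice 2 h after formalin had been injected under the skin of the left hind paw. The ipsilateral dorsal horn of segments L3 to L5 was dissected. Males, F1/proestrus and F2/metestrus gave 6 samples each, all from mice aged 8 to 12 weeks and all injected with 2% formalin at 8 µL per 20 g of body weight. F1 denotes females with a short and F2 females with a long pause (interphase) between the phases of pain behavior, in proestrus and metestrus, respectively. Samples of uninjected mice were not analysed here, so no value below is a response to formalin. The study's methods treat the samples as biological replicates, and the p-values measure the spread between these samples.

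Total counts were 73590509 to 125724156 per sample. The library numbers formed 2 series of 9, each with 3 samples of every group (replicates 1 to 3 in the first and 4 to 6 in the second), and 26.9% of the 25180 genes tested differed between the series at a false discovery rate (FDR) of 5%. What else differed between the series is not stated. F1/proestrus replicate 5 stood apart, with 513 counts per 1000000 (CPM) summed over the markers of sensory ganglion neurons against 7.61 to 34.01 CPM in the other 17 samples. The sexes were as labelled, since *Xist* had 796 to 1918 counts in females and 2 to 11 in males. Markers of the dorsal horn were present in all 18 samples (summed level of 8 genes, 219 to 392 CPM), as were those of microglia (10 genes, 249 to 321 CPM).

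Colony-stimulating factors are secreted proteins that sustain the survival, division and maturation of myeloid cells. CSF-1 and IL-34 both bind CSF1R, a receptor tyrosine kinase on which microglia depend for survival. In nervous tissue IL-34 comes mainly from neurons, and CSF-1 released by injured sensory neurons acts on spinal microglia in models of nerve injury. GM-CSF (*Csf2*) binds its own alpha chain (*Csf2ra*) paired with a common beta chain (*Csf2rb*), which also serves the receptors of IL-3 and IL-5. Mice carry a second beta chain gene, *Csf2rb2*, whose product is used by IL-3. G-CSF (*Csf3*) and its receptor (*Csf3r*) drive the production and release of neutrophils.

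The beta chain genes, *Csf2rb* (chr15:78325752-78353847) and *Csf2rb2* (chr15:78282507-78305721), lie side by side on opposite strands and are close copies, so their sequences are shown first: they show how far reads can tell the genes apart. The coding sequences of *Csf2rb* (2691 bases) and *Csf2rb2* (2637 bases), from GENCODE vM21 on GRCm38, were the same at 2505 of 2631 aligned bases, an identity of 95.21%. Of the windows of 50 bases in *Csf2rb*, 26.3% occurred without any difference in the *Csf2rb2* transcript, and of the windows of 100 bases 11.0% did. The authors counted uniquely mapped reads, and a read from such a window has more than 1 equally good place, while the read length is not given in the sources used here. The first pair of lines is the 120-base stretch with the fewest differences, in exon 14 of both genes. The second pair is the stretch with the most, in exon 4 of both genes. Capitals mark the bases that differ, and each line is read 5′ to 3′ on the strand of the gene.
*Csf2rb*, plus strand, chr15:78348577-78348696: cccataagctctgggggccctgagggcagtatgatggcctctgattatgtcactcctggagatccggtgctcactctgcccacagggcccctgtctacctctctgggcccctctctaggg
*Csf2rb2*, minus strand, chr15:78284752-78284871: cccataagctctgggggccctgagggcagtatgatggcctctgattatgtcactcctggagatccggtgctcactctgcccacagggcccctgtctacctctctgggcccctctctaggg
*Csf2rb*, plus strand, chr15:78338867-78338986: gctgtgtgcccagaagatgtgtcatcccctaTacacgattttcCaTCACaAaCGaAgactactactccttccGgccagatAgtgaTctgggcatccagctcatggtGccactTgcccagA
*Csf2rb2*, minus strand, chr15:78294345-78294464: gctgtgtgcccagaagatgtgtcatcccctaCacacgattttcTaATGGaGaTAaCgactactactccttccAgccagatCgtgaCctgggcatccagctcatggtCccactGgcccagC

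The exon 14 stretches did not differ at any of the 120 bases, and those of exon 4 differed at 16 (identity 86.7%). By exon of *Csf2rb*, identity ran from 87.9% in exon 11 to 99.0% in exon 13. Counts of these 2 genes may therefore come from only part of their length, depending on the read length, and are uncertain where they are set against other genes. Only windows of the coding sequence were compared, which for *Csf2rb* is 2691 bases beside 7277 bases of annotated exon.

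The levels of the 9 genes were next set in order. Levels of different genes were compared as CPM per kilobase of annotated exon, averaged over the 18 samples. *Csf1r* was highest at 23.3 ± 1.98 CPM per kb (SD, n = 18), and its ligand genes followed, *Il34* at 13.9 ± 1.80 and *Csf1* at 7.31 ± 0.678 CPM per kb. The mean of *Csf1r* was thus 1.68 times that of *Il34*, and that of *Il34* 1.90 times that of *Csf1*. Without division by exon length *Csf1* (38.6 CPM) was above *Il34* (27.2 CPM). *Csf2ra* had 2.26 ± 0.283 and *Csf3r* 1.10 ± 0.181 CPM per kb. Down to this point no neighbours in the order overlapped in any of the 18 samples, and *Csf3r* was also clear of the next gene. *Csf2rb* (0.143 ± 0.0376 CPM per kb) and *Csf2rb2* (0.0914 ± 0.0408 CPM per kb) overlapped, with ranges of 0.0820 to 0.199 and 0.0348 to 0.175 CPM per kb. Their order is also subject to the shared sequence above.

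**Figure D1:**
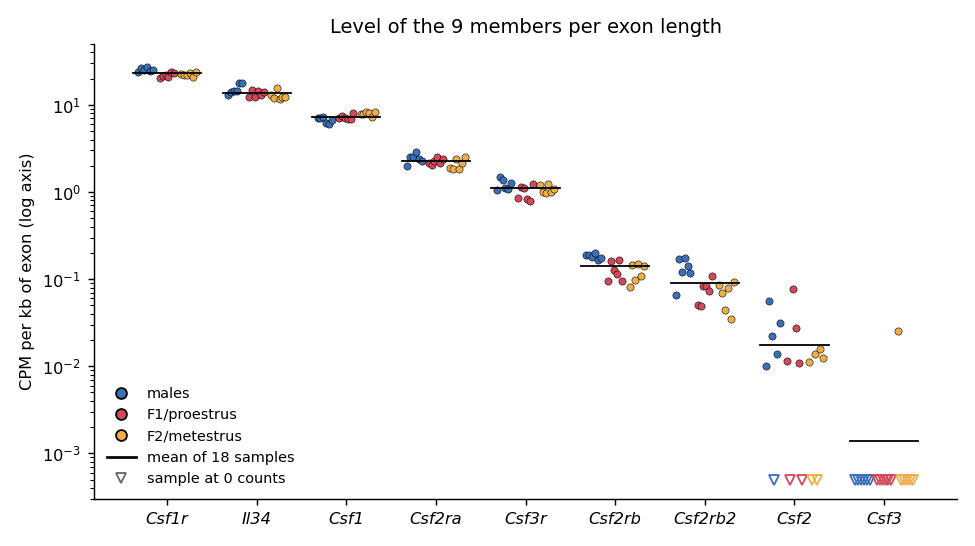
Level of each of the 9 genes in CPM per kilobase of exon on a log axis, with 1 point per sample colored by group, a line at the mean of 18 samples, and open triangles at the bottom for samples with 0 counts. The order runs from *Csf1r* (mean 23.3) through *Il34* (13.9) and *Csf1* (7.31) down to *Csf2rb2* (0.0914), and *Csf3* was at 0 counts in 17 samples.

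*Csf2* and *Csf3* were at the limit of detection and did not pass the filter on low counts, so 7 of the 9 members were tested. *Csf2* had 26 counts over all 18 samples, at most 6 in a sample (F1/proestrus replicate 3), and 5 samples had 0. Of these counts 12 were in males, 10 in F1/proestrus and 4 in F2/metestrus. *Csf3* had 4 counts, all of them in F2/metestrus replicate 1, and 0 in the other 17 samples. A count of 0 allows up to 3 counts, which is 0.0240 to 0.0407 CPM depending on the sample. No fold change is given for either gene. *Csf2* (chr11:54247271-54249667) also shares exon sequence with the antisense gene *Gm12223*, which had 119 counts in all, and whether the counting used the strand is not stated.

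The design first asks whether the receptors and ligands differ between males and females after formalin, with the 12 females as a single condition. Of the 7 tested members, 6 were higher and 1 lower in males, with a median log2 fold change of 0.22 beside -0.001 over all 24862 genes tested. None of the 7 passed FDR 5% in edgeR, where 0.197% of all genes did (49 genes), and none was free of overlap between males and females, as 0.125% of all genes were. DESeq2, the tool of the study's own comparison, called 3 of the 7, beside 0.626% of all genes, namely *Csf1r*, *Csf2rb* and *Csf2rb2*. With the library series as a covariate edgeR called 1 of the 7, *Csf1r*, beside 0.528% of all genes. The choice of the family used this contrast, so nothing is read from these counts. In bulk tissue, more cells of a type and more RNA per cell cannot be told apart.

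**Figure D2:**
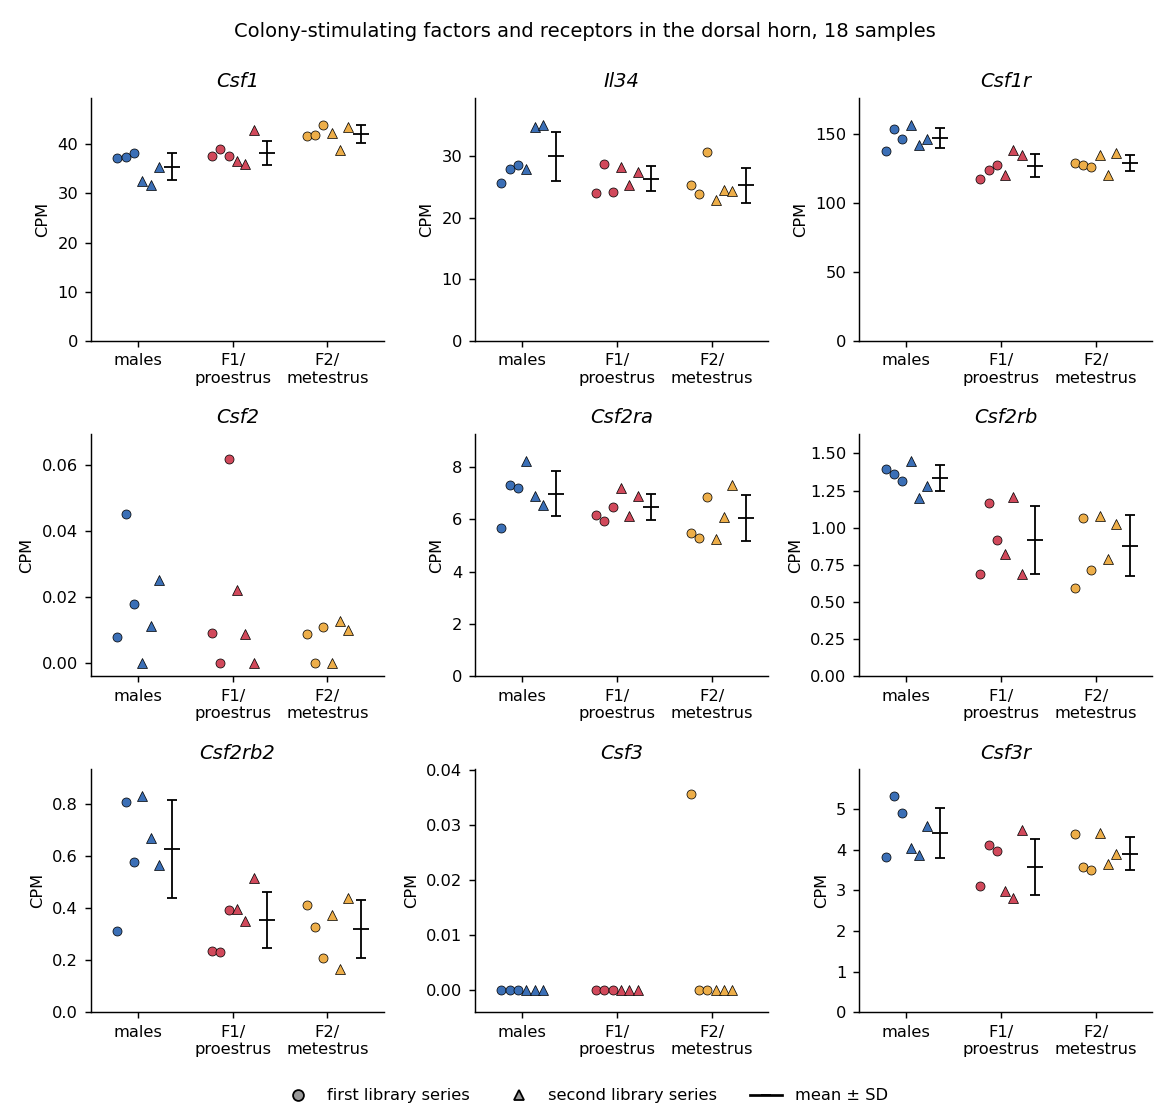
CPM of the 9 genes in each of the 18 samples, by group, with circles for the first and triangles for the second library series and bars for mean ± SD (n = 6 per group; no bar for *Csf2* and *Csf3*, which were near 0). The male samples of *Csf1r* and *Csf2rb* lay above nearly all of the female samples, and those of *Csf1* below all of the F2/metestrus samples.

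*Csf1r*, the receptor of CSF-1 and IL-34, had 138, 146 and 157 CPM in males (lowest, median and highest of 6). F1/proestrus had 117, 126 and 139 CPM and F2/metestrus 121, 129 and 136.5 CPM. The highest female sample, F1/proestrus replicate 5, was just above the lowest male, and the other 11 females were below all males. The log2 fold change of males against females was 0.20 ± 0.04 (SE), a ratio of 1.15. Without F1/proestrus replicate 5, the sample with the sensory ganglion markers, it was 0.21. It was 0.20 in the first series alone and 0.18 in the second. The gene (chr18:61100598-61132149) ends within an exon of *Hmgxb3* on the other strand, and *Hmgxb3* itself had a log2 fold change of -0.01 ± 0.05.

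*Csf1* (chr3:107741048-107760469), which encodes the first ligand, was the member lower in males. Its level was 31.8, 36.4 and 38.3 CPM in males, 36.0, 37.7 and 42.9 CPM in F1/proestrus and 38.8, 42.1 and 44.0 CPM in F2/metestrus. All 6 F2/metestrus samples were above all 6 males, whereas F1/proestrus overlapped with both. The log2 fold change of males against all females was -0.18 ± 0.06, with -0.11 in the first and -0.26 in the second series. Set against each female group in the same fit, it was -0.11 ± 0.06 against F1/proestrus and -0.25 ± 0.06 against F2/metestrus, and these values share the males.

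*Il34*, which encodes the second ligand, had 25.7, 28.2 and 35.1 CPM in males, 24.1, 26.4 and 28.8 CPM in F1/proestrus and 22.8, 24.4 and 30.7 CPM in F2/metestrus. The groups overlapped, and the highest males were replicates 5 and 6 of the second series, at 34.7 and 35.1 CPM. The log2 fold change of males against females was 0.22 ± 0.07. It was 0.05 in the first series and 0.36 in the second. A fit with an interaction of sex and series, added after the data had been seen, gave a difference of 0.30 ± 0.13 on the log2 scale between the series (edgeR, adjusted p = 0.970), and 0 of the 7 members and 0.0% of 26075 genes passed FDR 5% in it. The antisense genes *Gm15894* and *Gm15895* overlap exons of *Il34* (chr8:110741829-110805924) at mean levels of 0.790 and 0.440 CPM, against 27.2 CPM for *Il34*.

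The beta chain genes *Csf2rb* and *Csf2rb2* were among those by which the family was chosen. Nothing is therefore read from their ratios being larger than that of the alpha chain *Csf2ra*. Their levels were much lower. *Csf2rb*, the common beta chain, had 1.20, 1.34 and 1.45 CPM in males, 0.689, 0.871 and 1.21 CPM in F1/proestrus and 0.596, 0.906 and 1.08 CPM in F2/metestrus. These values stand on 107 to 174 counts per male and 62 to 138 per female sample. The lowest male, replicate 5, lay just under the highest female, again F1/proestrus replicate 5, and above the other 11 females. The log2 fold change was 0.57 ± 0.14, a ratio of 1.48, with 0.64 in the first and 0.49 in the second series, and 0.62 without F1/proestrus replicate 5.

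*Csf2rb2*, the beta chain used by IL-3, had 0.313, 0.622 and 0.827 CPM in males, 0.231, 0.371 and 0.514 CPM in F1/proestrus and 0.165, 0.350 and 0.438 CPM in F2/metestrus. Male replicate 1 was within the range of the females and the other 5 males were above all 12 females. The log2 fold change was 0.88 ± 0.22, a ratio of 1.84 on 13 to 89 counts per sample. It was 0.89 in the first series, 0.87 in the second, and 1.01 without male replicate 1. *Csf2ra*, the alpha chain (chr19:61223957-61228429), had 5.67, 7.05 and 8.23 CPM in males, 5.92, 6.32 and 7.18 in F1/proestrus and 5.26, 5.79 and 7.29 in F2/metestrus. Its groups overlapped widely, with a log2 fold change of 0.16 ± 0.08 and an interval of -0.02 to 0.33.

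*Csf3r*, which encodes the G-CSF receptor (chr4:126024550-126044440), had 3.81, 4.31 and 5.31 CPM in males, 2.81, 3.53 and 4.47 CPM in F1/proestrus and 3.49, 3.77 and 4.41 CPM in F2/metestrus. Males overlapped with both female groups, and 2 males, replicates 2 and 3, were above the others at 5.31 and 4.91 CPM. The log2 fold change was 0.24 ± 0.11. It was 0.29 in the first and 0.17 in the second series.

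Taken against each female group separately, 3 of the 7 tested members did not overlap between males and F2/metestrus, *Csf1*, *Csf1r* and *Csf2rb*, beside 0.636% of all genes. Between males and F1/proestrus 0 of the 7 were without overlap, beside 0.334% of all genes. Both comparisons share the 6 males and the contrast by which the family was chosen, and nothing is read from the counts.

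The markers of other cells are given beside these values. All 9 tested neutrophil markers of 11 were higher in males (median log2 fold change 1.37), of which 1, *Mpo*, passed FDR 5% in edgeR, and *Ly6g* and *Cxcr2* were below the filter. Their summed level was 2.14 to 11.9 CPM in females and 6.17 to 33.97 CPM in males. The highest sum, 33.97 CPM, was in male replicate 1, which had the lowest *Csf1r* (138 CPM), *Csf2rb2* (0.313 CPM) and *Csf3r* (3.81 CPM) of the males, while its *Csf2rb* (1.39 CPM) was the second highest of the 6. The 10 microglia markers summed to 249 to 291 CPM in females and 264 to 321 CPM in males, with 7 of 10 higher, 0 passing FDR 5% and a median log2 fold change of 0.06. The 8 markers of perivascular and meningeal macrophages summed to 17.4 to 39.5 CPM in females and 25.5 to 39.3 CPM in males (6 of 8 higher, 0 past FDR 5%), and the 6 Schwann cell markers to 1477 to 2871 and 2102 to 4909 CPM (6 of 6 higher, 1 past FDR 5%, *Ncmap*). The 6 motor neuron markers, found in the ventral horn, summed to 33.03 to 322 CPM in females and 22.9 to 166 CPM in males (0 of 6 higher, 0 past FDR 5%). The 8 markers of dorsal horn neurons were all higher in males (0 past FDR 5%, median log2 fold change 0.24) and summed to 219 to 367 CPM in females and 274 to 392 CPM in males. The 6 monocyte markers summed to 24.7 to 97.1 CPM in females and 23.8 to 75.04 CPM in males (5 of 6 higher, 0 past FDR 5%, median 0.33). The 5 tested markers of sensory ganglion neurons were all lower in males (0 past FDR 5%), with sums of 7.61 to 513 CPM in females and 8.30 to 26.2 CPM in males. The part of these markers in the differences between the sexes was not tested.

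Whether the members varied with such markers among samples of the same group can be tested, since the choice did not use it. For this the log2 CPM of a gene and a score, the mean log2 CPM of a marker list, were centered within the 3 groups, and 15 relations were computed over the 18 samples. *Csf1r* and the microglia score had no correlation past the threshold (Pearson r = 0.003, permutation p = 0.991, Spearman rho = 0.049, permutation p = 0.861, adjusted p 0.991 and 1). Without the 2 samples farthest from the median of the score r was 0.22, and r was -0.53 in the first and 0.02 in the second series. *Csf2rb* and the neutrophil score had r = 0.24 (permutation p = 0.368, rho = 0.13, permutation p = 0.624, adjusted p 0.991 and 1), *Csf2rb2* and the neutrophil score r = -0.29 (permutation p = 0.242, rho = -0.26, permutation p = 0.330, adjusted p 0.991 and 1), and *Csf3r* and the neutrophil score r = -0.10 (permutation p = 0.748, rho = -0.04, permutation p = 0.898, adjusted p 0.991 and 1). Without the 2 samples farthest from the median these 3 values of r were -0.05, -0.07 and 0.49, and the first series gave 0.32, -0.58 and -0.31, the second 0.22, -0.27 and 0.03.

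*Il34* and the score of neurons, the cells known as its main source, had r = -0.49 (permutation p = 0.044, rho = -0.36, permutation p = 0.166), which did not pass the adjustment over the 15 relations (adjusted p 0.664 and 1). Without the 2 samples farthest from the median r was -0.49, and it was -0.66 in the first and -0.95 in the second series. With values centered and permuted within each group and series, a setting chosen after seeing the data, r was -0.78 (permutation p = 0.0057, adjusted p = 0.0858; rho = -0.74, permutation p = 0.0084, adjusted p = 0.126), which again did not pass. *Csf2rb* and *Csf2rb2* had r = 0.01 within groups (permutation p = 0.955, rho = -0.04, permutation p = 0.883, adjusted p 0.991 and 1), with r of -0.01 without the 2 farthest samples and of -0.08 and 0.22 in the 2 series. *Csf1r* and *Csf1* had r = 0.17 (permutation p = 0.529, rho = 0.15, permutation p = 0.570, adjusted p 0.991 and 1), which became -0.12 without the 2 farthest samples and was 0.01 and 0.41 in the series. *Csf1r* and *Il34* had r = -0.13 (permutation p = 0.607, rho = -0.12, permutation p = 0.635, adjusted p 0.991 and 1), with -0.07 without the 2 farthest samples and 0.18 and -0.65 in the series. The other 7 relations had r between -0.30 and 0.35, and none of the 15 had an adjusted p under 0.664 when centered within groups, or under 0.0858 when centered within group and series.

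The design next asks whether these genes differ between the female groups. Stage of the estrus cycle and length of the interphase differ together between these groups and cannot be told apart here. Of the 7 tested members 0 passed FDR 5% between F2/metestrus and F1/proestrus, as did 0.0% of the 24042 genes tested in edgeR (596 genes at an unadjusted p under 0.05, smallest adjusted p 0.863). DESeq2 called 2 genes, neither of them a member. Of the members 3 were higher and 4 lower in F2/metestrus, with a median log2 fold change of -0.06 beside -0.0004 over all genes. *Csf1* differed most relative to its error, at 38.3 ± 2.49 CPM in F1/proestrus and 42.1 ± 1.85 CPM in F2/metestrus (SD, n = 6 each), a log2 fold change of 0.13 ± 0.06 with a 95% interval of 0.02 to 0.25. It was the only member with an unadjusted p under 0.05 in edgeR. It was 0.15 in the first and 0.12 in the second series.

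*Csf1r* had a log2 fold change of 0.02 ± 0.05 between the female groups, with an interval of -0.09 to 0.13. For *Il34* it was -0.06 ± 0.08 (-0.23 to 0.10), for *Csf2ra* -0.10 ± 0.10 (-0.30 to 0.11) and for *Csf3r* 0.12 ± 0.13 (-0.14 to 0.39). The beta chains had wider intervals, -0.48 to 0.35 for *Csf2rb* (-0.07 ± 0.20) and -0.71 to 0.46 for *Csf2rb2* (-0.12 ± 0.28).

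**Figure D3:**
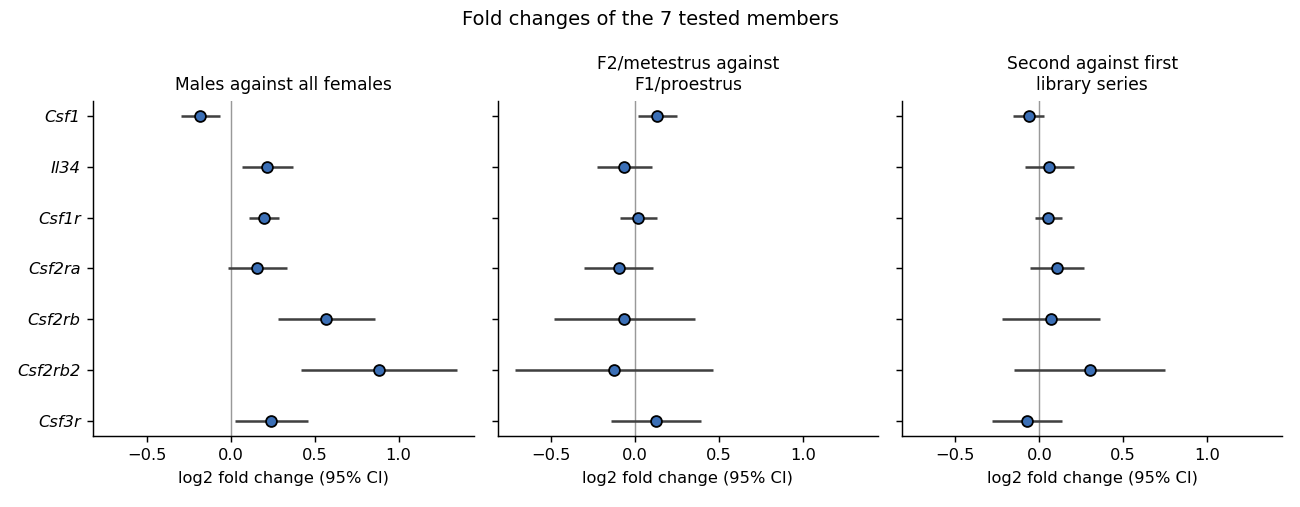
Log2 fold change with its 95% interval for the 7 tested members in males against all females, F2/metestrus against F1/proestrus and the second against the first library series, from edgeR. In the left panel *Csf1* (-0.18) stood left of 0 and *Csf2rb2* (0.88) farthest right, and in the other panels the intervals held 0 except that of *Csf1* between the female groups (0.02 to 0.25).

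The 2 ligands of CSF1R were also compared within each library as the ratio of *Il34* to *Csf1* in counts per kilobase, in which the depth of the library cancels. The ratio was above 1 in all 18 samples. That rests on the division by annotated exon length, 1959 bases for *Il34* and 5281 for *Csf1*. In CPM the mean over the samples was higher for *Csf1* (38.6) than for *Il34* (27.2). It was 1.72, 1.82 and 2.08 in F1/proestrus (lowest, median and highest) and 1.45, 1.58 and 1.88 in F2/metestrus. F2/metestrus thus had the lower ratio, with overlap, at a difference of -0.20 on the log2 scale (two-sided exact permutation test, p = 0.0238, 924 arrangements). The difference was negative in both series, at -0.11 in the first (exact p = 0.40) and -0.29 in the second (exact p = 0.10), where 0.10 is the smallest p that 3 against 3 samples allow. Leaving out any 1 of the 12 females gave -0.25 to -0.17, with exact permutation p of 0.0043 to 0.0476. In males the ratio was 1.86, 2.16 and 2.94, given as a description. The 3 males of the second series had the highest ratios of all samples, at 2.32, 2.94 and 2.67.

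**Figure D4:**
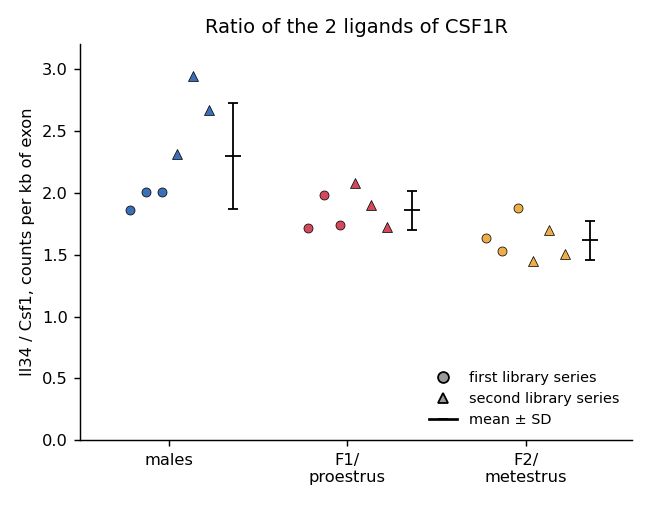
Ratio of *Il34* to *Csf1* in counts per kilobase of exon in each sample, by group, with circles for the first and triangles for the second library series and mean ± SD beside the points (n = 6). F2/metestrus samples ran from 1.45 to 1.88 and F1/proestrus samples from 1.72 to 2.08, and the 3 males of the second series were the highest.

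The markers of other cells are given for the female groups as well, with 0 past FDR 5% in each list named here. All 9 tested neutrophil markers were higher in F2/metestrus (median log2 fold change 0.54), with sums of 2.14 to 11.9 CPM in F1/proestrus and 6.31 to 11.3 CPM in F2/metestrus. All 8 astrocyte markers (median 0.03, sums of 5649 to 7152 and 6180 to 6676 CPM) and all 6 oligodendrocyte markers (median 0.11, sums of 28835 to 36619 and 30751 to 35483 CPM) were also higher in F2/metestrus. All 8 markers of dorsal horn neurons were lower (median -0.11, sums of 219 to 367 CPM in F1/proestrus and 231 to 283 CPM in F2/metestrus), as were the 4 tested markers of sensory ganglion neurons (sums of 7.61 to 513 and 21.9 to 34.01 CPM). For the latter, the 513 CPM was F1/proestrus replicate 5 alone. The median sum of these markers was 21.6 CPM in F1/proestrus and higher, 24.1 CPM, in F2/metestrus. Other lists had markers in both directions. Of the microglia markers 9 of 10 were higher in F2/metestrus (median 0.04), and of the monocyte markers 4 of 6 (0.08). Perivascular and meningeal macrophages had 2 of 8 higher (median -0.11), Schwann cells 1 of 6 (-0.02) and motor neurons 4 of 6 (0.31). The part of these markers in the values of the members and in the ratio was not tested.

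Between the library series, 0 of the 7 tested members passed FDR 5%, beside 26.9% of all genes. Their log2 fold changes of the second against the first series ran from -0.07 (*Csf3r*, ± 0.10) to 0.30 (*Csf2rb2*, ± 0.21), and their adjusted p in edgeR from 0.314 to 0.758. *Csf1r* had 0.05 ± 0.04, with an interval of -0.03 to 0.13. Among the microglia markers *Tmem119*, *Siglech*, *Fcrls* and *Olfml3* passed as higher in the second series and *Cx3cr1* as lower. That the members differed less often than other genes was not tested.

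The other genes of these pathways were then counted in lists. These lists were chosen with earlier results of these data known, and their counts between the sexes are given as a description. Of 12 genes that act in CSF1R signaling, 12 were tested and 0 passed FDR 5% between the sexes in edgeR and in DESeq2. Their log2 fold changes were -0.21 to 0.29, with a median of 0.01. *Fyn*, a kinase of the Src family and the highest gene of this list, had 195.8 CPM in females and 195.7 CPM in males (log2 fold change -0.00 ± 0.04), and *Grb2*, an adaptor that links the receptor to Ras, had 75.6 and 77.6 CPM in females and males (0.04 ± 0.05). *Tyrobp*, an adaptor through which CSF1R signals in microglia and the gene of this list highest in males relative to females, had 0.29 ± 0.08 and was singled out after its values had been seen.

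Of 14 genes of the JAK-STAT pathway that GM-CSF and G-CSF receptors use, 14 were tested and 0 passed in edgeR, with a median log2 fold change of -0.05. *Jak1* had 280 CPM in females and 251 CPM in males (-0.16 ± 0.08) and *Stat3* 121 and 114 CPM (-0.09 ± 0.08). The genes that DESeq2 called included *Jak3*, a kinase of lymphoid and myeloid cells, at 0.37 ± 0.10, higher in males, and *Cish*, a feedback inhibitor induced by STAT5, at -0.39 ± 0.09, lower in males. With the series as a covariate edgeR called *Cish* alone of these genes, at -0.38 ± 0.07. *Cish* had 6.52 ± 0.743 CPM in the 12 females and 4.98 ± 0.625 CPM in the 6 males. *Jak3* and *Cish* were named after their calls had been seen.

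Of the 4 partners of the common beta chain, *Il3*, *Il5* and *Il5ra* were below the filter. *Il3ra*, the alpha chain of the IL-3 receptor, had 0.680 CPM in females and 0.722 CPM in males (log2 fold change 0.08 ± 0.19). The other receptors of IL-34, *Ptprz1* (161 and 151 CPM) and *Sdc1* (4.59 and 3.73 CPM), had -0.09 ± 0.10 and -0.30 ± 0.18. Of 8 transcription factors of the myeloid lineage 7 were tested and 0 passed in edgeR or DESeq2. The most abundant, *Ets2* and *Cebpb*, had -0.04 ± 0.05 and 0.09 ± 0.07, and the list had a median of 0.09. Of 6 cytokines that induce colony-stimulating factors, *Tnf*, *Il6*, *Il17a* and *Ifng* were below the filter. *Il1a* (0.456 CPM in females, 0.624 CPM in males) and *Il1b* (0.052 and 0.092 CPM) had 0.44 ± 0.19 and 0.78 ± 0.55, and neither passed in edgeR.

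Between the female groups none of the genes in these 6 lists passed FDR 5%. Between the library series 11 of the 38 tested genes of these lists did, beside 26.9% of all genes. Of these *Grb2* (0.14 ± 0.04), *Lyn* (0.27 ± 0.08), *Cish* (0.18 ± 0.06) and *Spi1*, the transcription factor that drives *Csf1r* in myeloid cells (0.28 ± 0.07), were higher in the second series. *Sos1* (-0.40 ± 0.06), *Pik3r1* (-0.22 ± 0.06), *Cbl* (-0.20 ± 0.05), *Jak1* (-0.19 ± 0.06), *Jak2* (-0.23 ± 0.05), *Tyk2* (-0.22 ± 0.06) and *Ptprz1* (-0.33 ± 0.05) were lower.

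**Figure D5:**
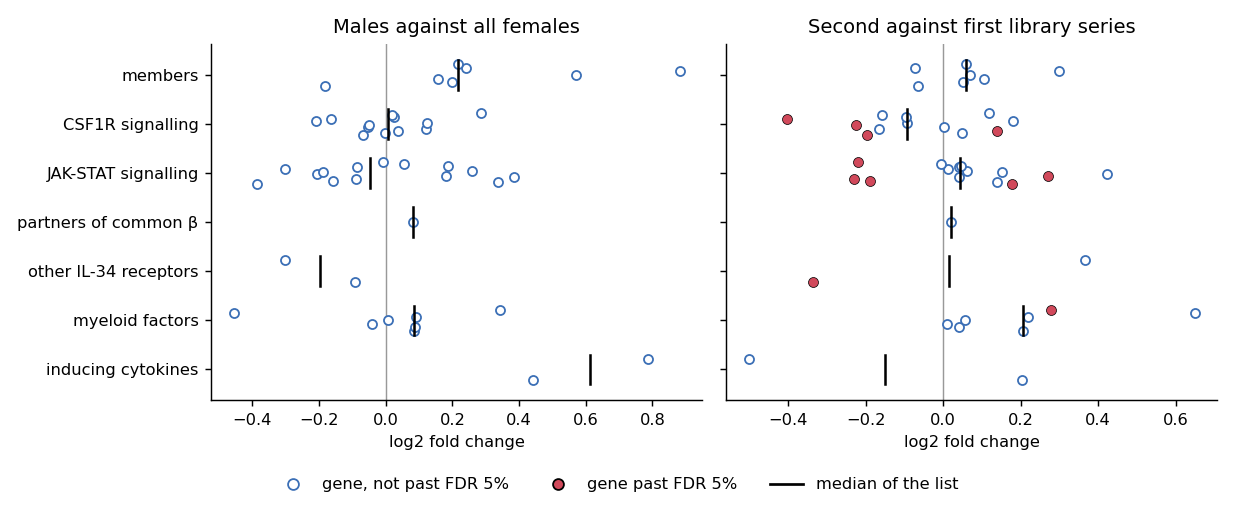
Log2 fold change of each tested gene of the family and of the 6 pathway lists in males against all females and in the second against the first library series, with open circles for genes not past FDR 5%, filled circles for genes past it in edgeR and a black line at the median of a list. Filled circles occur in the right panel only, and the median of the family is 0.22 on the left and 0.06 on the right.

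Finally, the genes whose level followed 4 members most closely were listed. Over the 18 samples, with log2 CPM centered within the 3 groups, the 5 genes with the highest Pearson r to each member were taken from 24861 genes, so that high values follow from the selection and carry no p. For *Csf1r* these were *Man2c1* (r = 0.91), *Trim35* (0.91), *Sin3b* (0.89), *Gm16121* (0.88) and *4930432K21Rik* (0.88). For *Csf2rb* they were *Il27ra* (0.81), *Cxcr4* (0.78), *Gm26577* (0.77), *Myb* (0.74) and the unnamed ENSMUSG00000117349 (0.73). *Csf1* was followed by *Dlgap1* (0.86), *Styk1* (0.85), *Gm42723* (0.83), *Fgfr2* (0.80) and *Stk19-ps1* (0.79). *Il34* was followed by *Cnn2* (0.91), *Gjb2* (0.85), *Fam118b* (0.83), *Fcf1* (0.82) and *Sertad1* (0.80). None of the 20 was a member of the family, a microglia marker or a neutrophil marker. Within a single series *Fgfr2* had r of 0.14 (first) and 0.79 (second) with *Csf1*, and *Man2c1* 0.95 and 0.92 with *Csf1r*.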

How the data were processed

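Counts were analysed for the 18 ipsilateral DHSC samples, grouped by their labels. Per the labels and the study's methods, the authors mapped reads uniquely to mm10 with Subread and counted them on exons with featureCounts. The deposited counts are raw. The sources differ on the library kit and the Subread version, and read length and use of the strand are not given in the sources used here. A second deposited table holds DESeq2 fold changes and p-values of the authors, of which only the gene symbols were used.

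The 9 members and all lists were chosen with earlier results of these data known. After filterByExpr (minimum count 10, total 15), TMM factors were computed and the quasi-likelihood test of edgeR 4.0.16 was run in R 4.3.3, with Benjamini-Hochberg adjustment over all genes tested at FDR 5%. DESeq2 1.42.0 was an alternative. CPM are counts per 1000000 of the TMM-scaled library, and log2 CPM used a prior count of 2. Correlations used 100000 permutations within groups. A floor of 3 counts, like all intervals on counts, covers counting error only. Coding sequences were aligned with Biopython 1.88. Scripts were tested on simulated data. Genes named besides the members were those past FDR 5% in a list or else its 2 with the highest mean CPM, and the 5 genes most correlated with each of *Csf1r*, *Csf2rb*, *Csf1* and *Il34*. Replicate numbers did not pair the samples. Some genes of the lists are not reported here by name.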

Additional observations from a re-analysis of the deposited data

Results flagged for a closer look

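In 30 groups of 6 samples, 3 had a highest sample set apart from the rest by Dixon's criterion. The 30 were the 9 members and the *Il34* to *Csf1* ratio in 3 groups each. By chance the criterion marks about 1 in 20 groups of continuous values. That rate does not hold for *Csf2* and *Csf3*, which had at most 6 and 4 counts in a sample. *Il34* had 30.7 CPM in F2/metestrus replicate 3, above the other 5 samples of that group (22.8 to 25.3 CPM), and its difference between the female groups was -0.13 without this sample in place of -0.06 (log2, F2/metestrus minus F1/proestrus). *Csf2* had 0.0617 CPM in F1/proestrus replicate 3, which is 6 counts. *Csf3* had 0.0356 CPM in F2/metestrus replicate 1, which is 4 counts, with 0 in all other samples. No cause was tested for these values.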

How the results depend on the processing

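Of the 203 values of the 7 members' male-female fold changes under the alternatives, none changed direction and 1 moved by more than its spread, *Il34* in the first series alone (0.05). The number of genes past FDR 5% between the sexes was 49, and it was 159 with DESeq2, 31 with at least 10 counts in every sample, 112 with the replicate block, 133 with the series as a covariate, 16 and 13 in the first and second series alone, and 23 and 32 against F1/proestrus and F2/metestrus alone. Leaving out 1 sample gave 25 (without male replicate 5) to 77 (without F1/proestrus replicate 5). Members past the threshold were 3 with DESeq2, 1 with the series as a covariate, and 0 to 1 when 1 sample was left out: *Csf1r* without F1/proestrus replicate 5 or F2/metestrus replicate 6, and *Csf2rb2* without male replicate 1. The replicate block called 0 members. The choice of the family used the male-female contrast, so nothing is read from these counts of members. Same-numbered samples did not deviate together more than other samples of their series. Of same-numbered pairs 9 of 18 had r over 0.1 (median 0.08), and of differently numbered pairs within a series 18 of 36 (median 0.10). Over all differently numbered pairs it was 19 of 90. With their own number 7 of 18 samples correlated best, and the block result stands only here. Between the female groups DESeq2 called 2 genes in place of 0. There the sign turned for *Il34* (0.0417) and *Csf2rb2* (0.1509) in the first series alone and for *Csf1r* (-0.0073) and *Csf2rb* (0.0842) in the second, and, when 1 sample was left out, the values ran from -0.0019 to 0.0481 for *Csf1r*, from -0.1347 to 0.0322 for *Csf2rb* and from -0.2331 to 0.0111 for *Csf2rb2*. The ratio of *Il34* to *Csf1* kept its sign but did not pass in the first (-0.11) or second (-0.29) series alone, where 3 against 3 samples cannot pass. Between the series 6774 genes passed, against 77, 781 and 1198 within F1/proestrus, F2/metestrus and males. The sign turned for *Csf1* (0.0119) and *Csf2rb* (-0.0202) within F1/proestrus, for *Il34* (-0.1584) and *Csf3r* (0.0613) within F2/metestrus and for *Csf2rb* (-0.0521) within males. The causes of these changes were not tested. Of the 15 relations 0 passed under the other prior count or when centered within group and series, the latter chosen after seeing the data. Depth limited *Csf2* (26 counts in all) and *Csf3* (4 counts), which gave no fold change.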
